A study of Mus musculus with 8 samples.

Results

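Marker genes of the white blood cells made in bone marrow were followed in RNA of mouse growth plate cartilage. The 31 genes were taken from a list of neutrophil, monocyte and B-lineage genes, and a gene counted as measured if the scanner software placed a probe to its RefSeq transcript well above background in 4 or more of the 8 mice. Of the 31, 25 were measured, among 23106 features tested in all: 8 of 9 granule precursor genes, 5 of 7 mature neutrophil genes, 4 of 4 monocyte genes and 8 of 11 B-lineage genes. RNA came from the femoral growth plates of 12-day-old littermates, 4 labelled Cre and 4 labelled CreTW, with 1 array per mouse. As background on this study, both genotypes carry a Cre recombinase driven by the promoter of the cartilage collagen gene Col2a1. In CreTW mice the recombinase also switches on mutant Twinkle, a helicase of mitochondrial DNA. The labels name neither strain nor sex.

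The growth plate borders the marrow cavity, where blood-forming cells mature beside the vessels and osteoclasts that invade the cartilage. Neutrophils fill their granules in waves: myeloperoxidase and the serine proteases first, then lactoferrin, cathelicidin and lipocalin, and at the end the calprotectin subunits S100a8 and S100a9 dominate the cytosol. B-cell precursors in the marrow carry the surrogate light chain (Vpreb1, Igll1) before they display a receptor, and mature B cells carry Ms4a1 (CD20). In whole tissue, fewer cells of a type and less RNA per cell cannot be told apart.

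Levels below are log2 intensities relative to the array's 75th percentile, so 0 means the 75th percentile of the probes on that array. The share of the 56605 probes that was well above background ranged from 45.4% to 57.9%, none was saturated, and precision is limited by the number of arrays. Chondrocyte markers were measured for all 10 genes listed, and Col2a1 lay between 9.66 and 10.18 on the 8 arrays. Differences are CreTW minus Cre with the standard error, n = 4 mice each. Adjusted p-values come from limma, adjusted by Benjamini-Hochberg across the 23106 features. Beyond genotype and age, the labels say of the mice only that they were littermates. The arrays filled 2 rows of 1 slide, with 2 arrays of either genotype in each row.

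None of the 25 measured genes passed the test between genotypes, although many of them differed many-fold among mice of the same genotype. Limma called 0 of 25 higher and 0 of 25 lower at adjusted p 0.05, where it called 0.346% of all features (0.229% higher and 0.117% lower), and 2 of 25 had an unadjusted p under 0.05, where 10.7% of all features did. Both of those, Ms4a1 and Pax5, were lower in CreTW cartilage, as were 4.8% of all features at that threshold. In 0 of 25 genes did the 4 Cre values and the 4 CreTW values avoid overlap, against 6.7% of all features. The count called was also 0 of the measured genes without each array in turn and without both Cre replicates 3 and 4. The difference was negative for 18 of 25 genes, as for 51.6% of all features, with a median of -0.20 against -0.01 over all features.

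**Figure D1:**
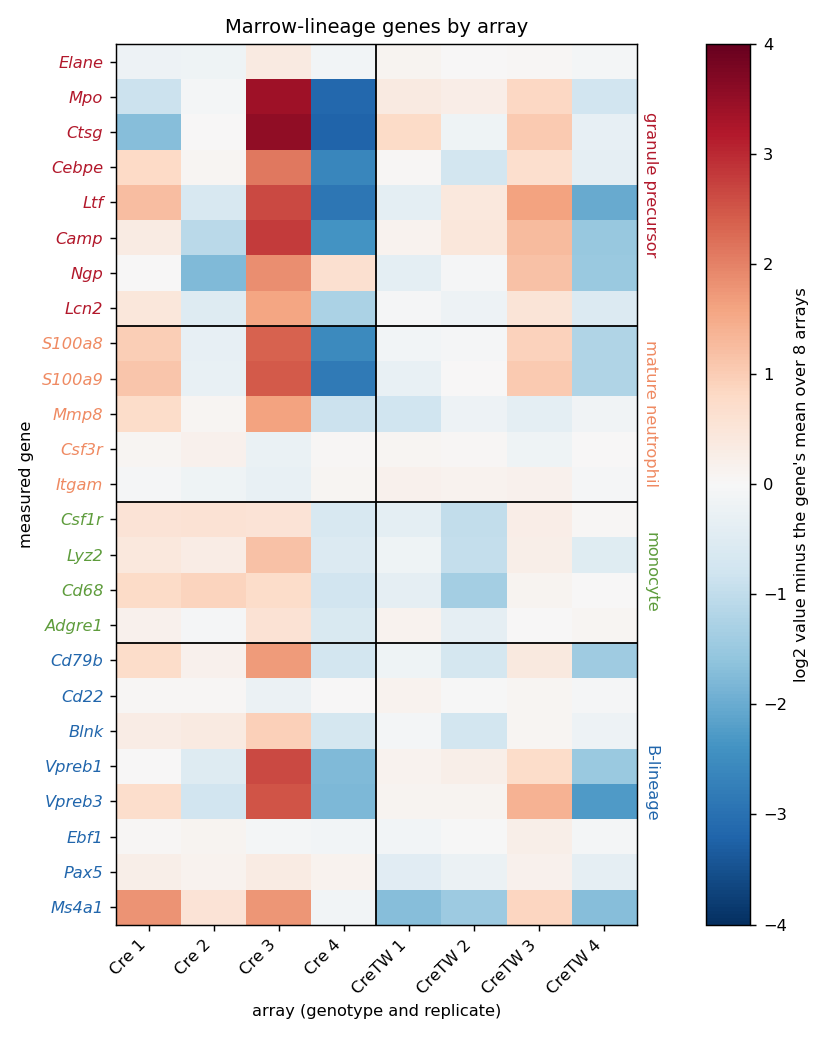
Each row is 1 of the 25 measured genes and each column 1 array, and colour gives the log2 value minus the gene's mean over the 8 arrays. Cre replicate 3 was the highest array for 18 of 25 genes and Cre replicate 4 the lowest for 11, while rows such as Csf3r, Cd22 and Ebf1 stay nearly white. Ctsg, Cebpe, Ltf, Mmp8, Vpreb1 and Vpreb3 were not well above background on Cre replicate 4.

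The spread among mice of 1 genotype was wide. Over the 8 arrays, 9 of 25 genes spanned more than 4 log2 units, as did 0.407% of all features, and 16 spanned more than 2 units, as did 3.87%. Of those above 4 units, Mpo, Camp, S100a8 and S100a9 were well above background on all 8 arrays. The others, Ctsg, Cebpe, Ltf, Vpreb1 and Vpreb3, were not so on Cre replicate 4, and their ranges are not exact. Cre replicate 3 was the highest of the 8 arrays for 18 of the 25 genes (8.19% of all features) and Cre replicate 4 the lowest for 11 (9.31% of all features). Among those 11, Ctsg, Cebpe, Ltf, Mmp8 and Vpreb1 were not well above background on Cre replicate 4. Among the CreTW arrays, replicate 3 was the highest for 19 of 25 genes (26.1% of all features). The SD was larger among Cre than among CreTW arrays for 22 of 25 genes, as for 52.5% of all features. These shares describe genes that were chosen with earlier results of these data known.

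Genes of the earliest granules, Ctsg and Mpo, had the widest ranges of the 25. Mpo encodes myeloperoxidase, the oxidant-making enzyme of the first granules to form. Its values were -0.33, 0.43, 3.90 and -2.61 on Cre replicates 1 to 4 and 0.88, 0.77, 1.34 and -0.24 on CreTW replicates 1 to 4. The Cre arrays alone spanned 91.3-fold and enclosed all 4 CreTW values. The difference was 0.34 ± 1.17 (95% interval -2.33 to 3.0, adjusted p = 0.94). Ctsg encodes cathepsin G, a serine protease stored with myeloperoxidase. It was at -3.98, -2.29, 1.26 and -5.48 in Cre and at -1.53, -2.47, -1.23 and -2.63 in CreTW. Cre replicate 3 was again highest and replicate 4 lowest, and Cre replicates 1 and 4 were not well above background. The difference was 0.66 ± 1.25 (95% interval -2.19 to 3.52, adjusted p = 0.88), or 0.60 once each dim value was set no lower than the dimmest detected signal of its array.

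The 1 probe for Elane, neutrophil elastase of the same granules, did not share this spread. It read 0.05, 0.08, 0.63 and 0.15 in Cre and 0.37, 0.28, 0.31 and 0.18 in CreTW, a range of 0.58 log2 units where Mpo had 6.51. The probe's sequence was not checked, so what it reads beside Elane is not known here. Cre replicate 3 was the highest here too, and the genotypes differed by 0.06 ± 0.14 (95% interval -0.25 to 0.37, adjusted p = 0.904). Prtn3, a further serine protease of these granules, was not measured: its probe was well above background on 1 of 8 arrays, a Cre array.

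The genes of the later granules were, like Mpo, highest on Cre replicate 3. Camp encodes the cathelicidin precursor. It was at 0.22, -1.18, 2.68 and -2.49 in Cre and at 0.04, 0.33, 1.14 and -1.64 in CreTW. Replicate 3 of each genotype was the highest of its group and replicate 4 the lowest, and the difference was 0.16 ± 1.05 (adjusted p = 0.97). Ltf, which encodes iron-binding lactoferrin, had a difference of -0.18 ± 1.19. Its highest value was 0.67, on Cre replicate 3, and it was not well above background on replicate 4 of either genotype. Lcn2, a siderophore-binding lipocalin, had a difference of -0.15 ± 0.55, and Cebpe, the transcription factor that switches on the later granule genes, one of -0.18 ± 0.88. Ngp, neutrophilic granule protein, broke the pattern on Cre replicate 4. Its values were -2.16, -3.93, -0.29 and -1.52 in Cre and -2.56, -2.19, -0.99 and -3.64 in CreTW, so that replicate 2 rather than 4 was the lowest Cre array. On Cre replicate 2 it was not well above background. Ngp differed by -0.37 ± 0.79 (adjusted p = 0.898), or by -0.50 with that dim value raised as for Ctsg. Over the 8 granule precursor genes, 4 differences were positive and 4 negative, with a median of -0.04.

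S100a8 and S100a9 form calprotectin, the main calcium-binding protein of the neutrophil cytosol. S100a9 was at 4.14, 2.75, 5.50 and 0.19 on the Cre arrays and at 2.72, 3.04, 4.08 and 1.82 on the CreTW arrays. S100a8 was at 2.39, 1.05, 3.74 and -1.17 in Cre and at 1.28, 1.34, 2.32 and 0.19 in CreTW. Both genes ordered the arrays of a genotype alike, and in both the Cre values enclosed the CreTW values. The differences were -0.23 ± 1.03 for S100a9 (95% interval -2.58 to 2.13, adjusted p = 0.956) and -0.22 ± 0.95 for S100a8 (95% interval -2.39 to 1.96, adjusted p = 0.954). These intervals reach past a 4-fold difference in either direction for S100a9, so changes of that size were not detectable with 4 mice per genotype. The difference between the 2 genes on the same array moved by 0.40 log2 units over the 8 arrays, although each gene alone moved by 4.91 or 5.31. Other pairs, also chosen after their values were seen, were looser: Mpo minus Ctsg moved by 1.27, Camp minus Ltf by 1.44, Vpreb1 minus Vpreb3 by 1.43 and Mpo minus S100a9 by 2.87 log2 units.

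**Figure D2:**
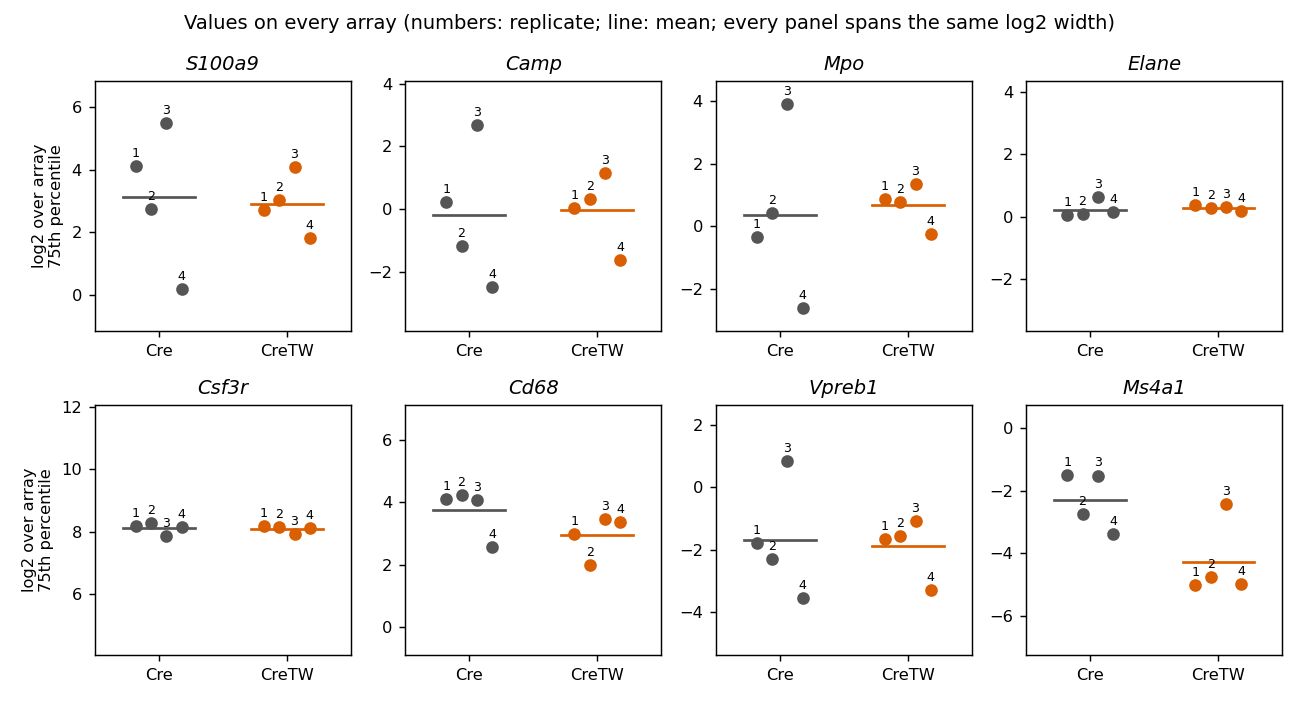
Points give the log2 value over the array's 75th percentile for 8 genes on every array, numbered by replicate, with a line at the mean of each genotype, and every panel covers the same log2 width. The Cre values of S100a9, Camp and Mpo enclose their CreTW values, whereas those of Elane and Csf3r sit within 0.58 and 0.42 log2 units over all 8 arrays.

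Of the other mature neutrophil genes, Mmp8 varied while Csf3r and Itgam were steady. Mmp8, neutrophil collagenase, was at -2.24, -2.90, -1.36 and -3.83 in Cre and at -3.78, -3.16, -3.35 and -3.12 in CreTW. The signal cleared the background in 3 of 4 Cre and 1 of 4 CreTW mice, and the difference was -0.77 ± 0.46 (adjusted p = 0.59). Csf3r encodes the receptor of the granulocyte colony-stimulating factor. Its probe stayed between 7.85 and 8.28 on all 8 arrays and was lowest on Cre replicate 3, the array where S100a9 was highest. Itgam, the integrin chain CD11b, lay between 6.95 and 7.43 and was also lowest on Cre replicate 3. The probes' sequences were not checked, so what the Csf3r and Itgam probes read beside these genes is not known here. Csf3r differed by -0.02 ± 0.11 (95% interval -0.27 to 0.24) and Itgam by 0.22 ± 0.10 (95% interval -0.02 to 0.46, adjusted p = 0.503). A second Itgam probe was well above background on 2 of 8 arrays, with values between -4.14 and -3.50, and did not share the level of the first. Cd177 was well above background on 0 of 8 arrays, and no probe was matched to Ly6g. Over the 5 measured genes the median difference was -0.22.

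Promoters of 5 neutrophil genes are shown because 4 had probes with wide ranges among the Cre mice and the Elane probe a narrow one. Promoter windows of 300 bases, from 250 before to 50 after the transcription start, were taken from RefSeq on build GRCm38.p6, and 28 windows of 26 listed genes were matched. They were searched on both strands for the letters TTGCNNAA, bound by C/EBP factors, and AGGAAGT, a form of the site of PU.1, both regulators of myeloid genes. The 5 windows, 5′ to 3′ on the gene's strand with these matches in capitals, lie at chr3:90668821-90669120, + strand (S100a8), chr3:90695672-90695971, - strand (S100a9), chr9:110419558-110419857, + strand (Ngp), chr11:87793534-87793833, + strand (Mpo) and chr10:79886062-79886361, + strand (Elane).
S100a8: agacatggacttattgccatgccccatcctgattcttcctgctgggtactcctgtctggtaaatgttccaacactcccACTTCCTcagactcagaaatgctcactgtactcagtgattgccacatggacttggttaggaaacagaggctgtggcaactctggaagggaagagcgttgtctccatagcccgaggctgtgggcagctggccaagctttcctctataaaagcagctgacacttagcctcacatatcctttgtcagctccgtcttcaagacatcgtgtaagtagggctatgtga
S100a9: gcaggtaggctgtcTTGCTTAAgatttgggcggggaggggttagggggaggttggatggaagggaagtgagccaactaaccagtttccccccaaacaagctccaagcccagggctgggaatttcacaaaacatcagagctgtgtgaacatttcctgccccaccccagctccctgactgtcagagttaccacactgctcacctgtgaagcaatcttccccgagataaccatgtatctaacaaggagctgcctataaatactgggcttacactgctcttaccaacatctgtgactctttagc
Ngp: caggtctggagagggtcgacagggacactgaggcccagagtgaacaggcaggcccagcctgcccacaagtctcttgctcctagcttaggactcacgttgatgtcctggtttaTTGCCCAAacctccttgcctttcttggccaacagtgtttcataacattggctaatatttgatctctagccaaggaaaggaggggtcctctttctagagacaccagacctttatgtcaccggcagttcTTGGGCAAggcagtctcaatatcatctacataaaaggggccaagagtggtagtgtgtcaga
Mpo: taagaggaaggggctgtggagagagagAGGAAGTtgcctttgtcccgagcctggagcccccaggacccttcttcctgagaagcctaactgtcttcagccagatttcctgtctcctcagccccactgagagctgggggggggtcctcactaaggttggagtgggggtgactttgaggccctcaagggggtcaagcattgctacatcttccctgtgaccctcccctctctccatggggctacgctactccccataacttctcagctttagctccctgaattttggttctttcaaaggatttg
Elane: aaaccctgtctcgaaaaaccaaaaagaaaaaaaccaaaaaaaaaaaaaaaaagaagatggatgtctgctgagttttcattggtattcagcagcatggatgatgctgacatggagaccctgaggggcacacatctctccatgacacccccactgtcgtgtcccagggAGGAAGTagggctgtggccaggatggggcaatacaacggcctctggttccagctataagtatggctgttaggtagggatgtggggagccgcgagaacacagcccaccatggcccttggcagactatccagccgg

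In these windows the C/EBP letters occur once in S100a9, 236 bases before the start, and at 2 places in Ngp, 138 and 11 bases before it. The PU.1 letters lie 172 bases before the start in S100a8, 223 in Mpo and 84 in Elane. In the windows shown no match overlaps another. Among all 28 windows of listed genes, 7 held the C/EBP letters and 13 the PU.1 letters, against 10.8% and 9.35% of 32851 promoter windows of the same length. Mpo and Elane both held the PU.1 letters, and their probes had ranges of 6.51 and 0.58 log2 units over the arrays. A match is a description of letters and not a measured binding site.

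Monocyte genes were lower in the CreTW mean in each of 4 genes, and none passed the test. Cd68, a lysosomal glycoprotein of macrophages and osteoclasts, was at 4.10, 4.23, 4.07 and 2.58 in Cre and at 2.99, 2.0, 3.45 and 3.38 in CreTW. Cre replicates 1 to 3 lay above every CreTW array, and Cre replicate 4 lay among the CreTW values. The difference was -0.79 ± 0.44 (95% interval -1.79 to 0.20, adjusted p = 0.561), and the second Cd68 probe also gave -0.79. Csf1r encodes the receptor of the macrophage growth factor. It was at 5.59, 5.61, 5.59 and 4.41 in Cre and at 4.64, 4.06, 5.30 and 5.08 in CreTW, the same picture, with a difference of -0.53 ± 0.35 (adjusted p = 0.617). Its second probe disagreed in spread, with a range of 0.55 log2 units against 1.55 and a difference of -0.22.

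Lyz2, lysozyme of macrophages and neutrophils, was at -0.43, -0.55, 0.33 and -1.39 in Cre and at -1.04, -1.80, -0.60 and -1.35 in CreTW. The Cre arrays other than replicate 4 were again above all CreTW arrays, and the difference was -0.69 ± 0.37 (adjusted p = 0.552). Lyz2 has a near-identical neighbour, Lyz1, which the probe may read as well. Adgre1, the macrophage surface receptor F4/80, differed by -0.05 ± 0.24 (95% interval -0.60 to 0.50). The median over the 4 genes was -0.61, or -0.38 without CreTW replicate 2. Slide row 1 alone gave -1.09, and slide row 2, which held replicates 3 and 4 of both genotypes, gave 0.08.

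Among B-lineage genes, too, some varied widely between mice and others were steady. Vpreb1, a surrogate light chain gene of B-cell precursors, was at -1.78, -2.31, 0.83 and -3.56 in Cre and at -1.66, -1.56, -1.07 and -3.30 in CreTW. Replicate 3 was highest and replicate 4 lowest in both genotypes, as for Camp, with a difference of -0.20 ± 0.88 (adjusted p = 0.956). Vpreb1 has a close copy, Vpreb2, that its probe may also read. Vpreb3, a chaperone of the receptor in precursors, was highest on replicate 3 of either genotype, with a difference of -0.32 ± 1.02. Neither gene's probe was well above background on Cre replicate 4, so their full spread is not exact. Cd79b, a signalling chain of the B-cell receptor, was at 0.03, -0.51, 1.0 and -1.42 in Cre and at -0.88, -1.40, -0.30 and -2.11 in CreTW. Its highest array of each genotype was replicate 3 and its lowest replicate 4, and the difference was -0.94 ± 0.54 (95% interval -2.17 to 0.28, adjusted p = 0.573). Blnk, the adaptor below that receptor, was at 1.02, 1.08, 1.67 and 0.01 in Cre and at 0.64, -0.04, 0.78 and 0.50 in CreTW. Its groups overlapped through Cre replicate 4 alone, and it differed by -0.47 ± 0.33 (adjusted p = 0.636).

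Ms4a1 had the largest difference of the 25 genes on the processed intensities, but not after normexp background correction, where it was -0.54 and Cd79b -0.63. This gene of the mature B-cell surface protein CD20 was at -1.50, -2.75, -1.52 and -3.39 in Cre and at -5.00, -4.76, -2.43 and -4.98 in CreTW. CreTW replicate 3 lay among the Cre arrays, and the other CreTW arrays lay below all of them. Its probe too cleared the background in 3 of 4 Cre and 1 of 4 CreTW mice. The difference was -2.0 ± 0.66 (95% interval -3.51 to -0.50, unadjusted p = 0.0149, adjusted p = 0.337), or -1.30 once dim values were set no lower than the dimmest detected signal of their array. Pax5, the transcription factor that commits cells to the B lineage, was at -2.30, -2.40, -2.21 and -2.39 in Cre and at -3.00, -2.76, -2.35 and -2.90 in CreTW. CreTW replicate 3 was again within the Cre range and the rest below it, with a difference of -0.43 ± 0.14 (unadjusted p = 0.0152, adjusted p = 0.338), or -0.16 after normexp.

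The probes for the early B-cell factor Ebf1 and the lectin Cd22 were steady, with ranges of 0.32 and 0.40 log2 units over the 8 arrays. Cd22 was lowest on Cre replicate 3, where Vpreb1, Vpreb3 and Cd79b were highest. The sequences of these 2 steady probes were not checked, so what they read beside Ebf1 and Cd22 is not known here. Ebf1 differed by 0.02 ± 0.10 (95% interval -0.20 to 0.25) and Cd22 by 0.09 ± 0.10 (95% interval -0.13 to 0.30). A second Ebf1 probe gave -0.19, and both other Cd22 probes were well above background on 0 of 8 arrays. Cd79a, the partner of Cd79b, was well above background on 2 of 8 arrays, and Igll1, the other surrogate light chain gene, on 1, a Cre array. Rag1, the recombinase of the receptor genes, was so on 0 of 8 arrays. The 8 measured B-lineage genes had a median of -0.38, which was -0.11 without Cre replicate 3, -0.17 without CreTW replicate 4, -0.57 without CreTW replicate 3 and -0.80 without Cre replicate 4.

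**Figure D3:**
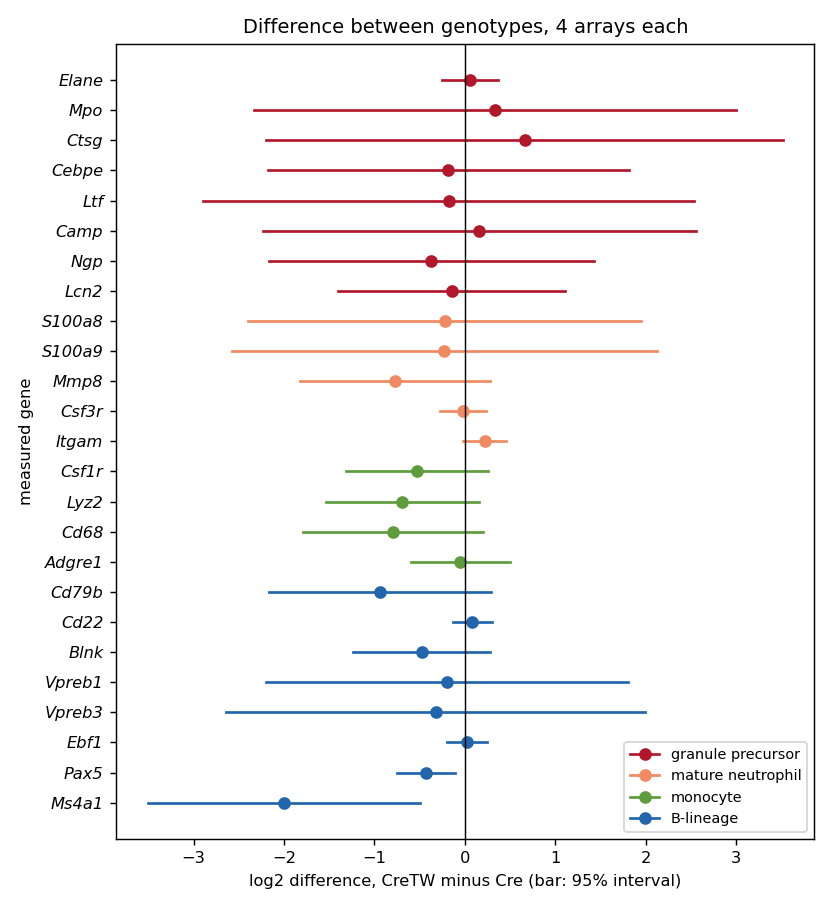
Points give the log2 difference, CreTW minus Cre, of the 25 measured genes and bars its 95% interval from limma, coloured by gene group. The intervals of Mpo, Ctsg, Ltf and S100a9 are several log2 units wide, those of Elane, Csf3r, Cd22 and Ebf1 are narrow around 0, and only those of Ms4a1 and Pax5 lie wholly below 0 before adjustment.

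Averaged over its genes, with each gene centred on its own mean, the granule precursor group was at 0.01, -0.52, 2.29 and -1.86 on the Cre arrays and at 0.08, -0.000747, 0.90 and -0.88 on the CreTW arrays. The mature neutrophil group was at 0.57, -0.11, 1.17 and -1.23 and at -0.20, -0.0085, 0.32 and -0.52. The B-lineage group was at 0.48, 0.01, 1.20 and -0.63 and at -0.26, -0.35, 0.49 and -0.94, with the same highest and lowest array of each genotype. The monocyte group was at 0.48, 0.43, 0.76 and -0.64 and at -0.20, -0.91, 0.16 and -0.08, so that CreTW replicate 2 and not 4 was its lowest CreTW array. The sign of the granule precursor median, -0.04, turned with single arrays: it was 0.58 without Cre replicate 3, 0.28 without CreTW replicate 4, 0.08 without Cre replicate 1 and 0.04 without CreTW replicate 2. It kept its sign and was -0.60 without Cre replicate 4, -0.28 without CreTW replicate 3 and -0.18 without Cre replicate 2. The mature neutrophil median, -0.22, turned to 0.15 without Cre replicate 3, 0.14 without CreTW replicate 4 and 0.08 without Cre replicate 1. It was -1.11 without Cre replicate 4, -0.57 without CreTW replicate 3 and -0.36 without Cre replicate 2. Within slide row 1 the medians were 0.46 for granule precursor, -0.41 for mature neutrophil and -0.32 for B-lineage genes, and within row 2 they were -0.12, 0.02 and -0.56.

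Markers of other cells also differed among these arrays. The mean centred value of 9 measured osteoclast markers was 0.73, 0.73, 0.54 and -0.58 in Cre and -0.53, -1.23, 0.29 and 0.05 in CreTW, with CreTW replicate 2 lowest as for the monocyte genes. Their summed intensity, relative to the array's 75th percentile, ranged from 402 to 1132 in Cre and from 271 to 991 in CreTW, and Calcr alone of the 10 was not measured. For 10 chondrocyte markers the centred value was 0.60 on Cre replicate 4, the highest of the 8 arrays, and -0.46 on CreTW replicate 3, the lowest. Their summed intensity ranged from 2116 to 3523 in Cre and from 2046 to 2772 in CreTW. The 10 skeletal muscle markers lay between -2.96 and 0.22 in Cre, highest on replicate 3, and at -1.17, 3.53, 2.63 and 1.83 in CreTW, with summed intensities of 30.3 to 82.3 and 40.5 to 501. For 6 of 13 erythroid markers measured the value was highest on Cre replicate 3 (0.73) and lowest on CreTW replicate 4 (-0.65), with sums of 65.9 to 106.7 and 44.4 to 87.3. With all 8 arrays none of the osteoclast, chondrocyte, muscle or erythroid markers was called, with medians of -0.81, -0.13, 3.99 and -0.61. Of the 10 muscle markers, 8 had an unadjusted limma p under 0.05, where 10.7% of all features did. Without CreTW replicate 1 the muscle gene Mylpf was called (5.01, adjusted p = 0.0471 by limma). The part of these other cells in the values above was not tested.

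**Figure D4:**
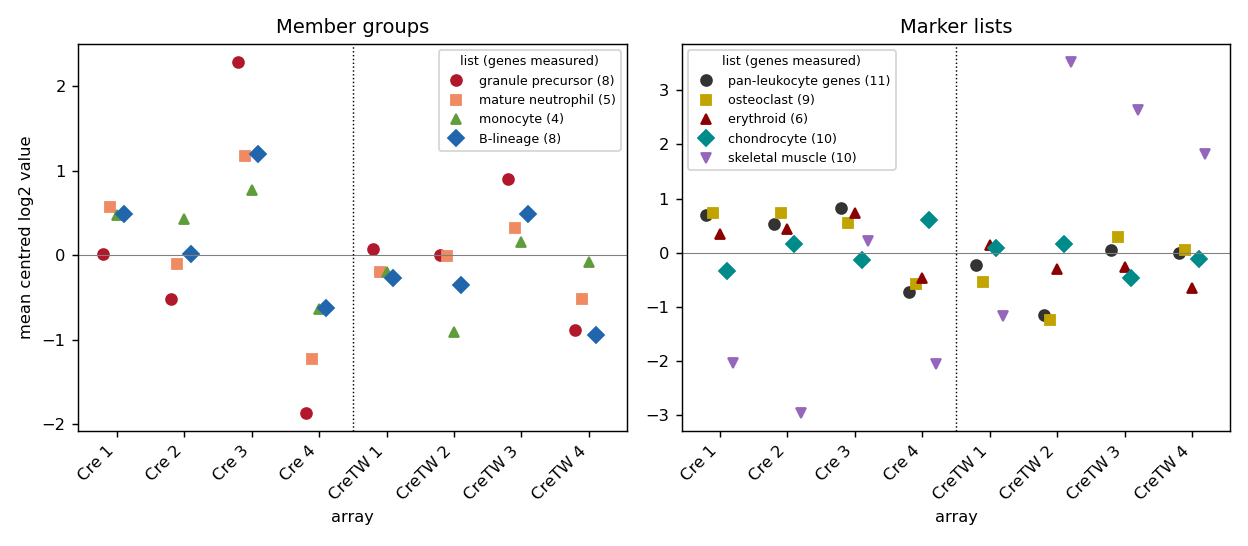
Points give for each array the mean over a list's measured genes of the log2 value minus the gene's own mean over 8 arrays, for the 4 groups described here (left) and for 5 lists of other markers (right). Granule precursor genes reach 2.29 on Cre replicate 3 and -1.86 on Cre replicate 4, where chondrocyte markers reach 0.60.

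Other genes of the same lineages were read from lists written from textbook knowledge. Of 16 measured among 25 other neutrophil genes 0 were called, 13 differences were negative, and the median was -0.38. Hp, haptoglobin, had a difference of -1.11 ± 0.55 (adjusted p = 0.519) and Ifitm6 one of -1.08 ± 0.74, or -0.88 with dim values raised as above. That median was -0.77 without Cre replicate 4. Of 16 measured among 18 other monocyte and macrophage genes 0 were called, with a median of -0.13. Ccr2, the chemokine receptor of inflammatory monocytes, had a difference of -0.98 ± 0.53, but it was well above background on 4 of 8 arrays and came to -0.48 with dim values raised. Mpeg1, a pore-forming macrophage protein, had a difference of -0.84 ± 0.38 (adjusted p = 0.476). The median of this list ran from -0.31 without Cre replicate 4 to -0.051 without CreTW replicate 2. Other B-lineage genes had 0 of 13 called and a median of -0.13, with the coactivator Pou2af1 differing by -1.03 ± 0.69 and the transcription factor Spib by -0.85 ± 0.68. With dim values raised these came to -0.82 and -0.43, and the median ran from -0.25 without CreTW replicate 1 to -0.037 without CreTW replicate 3.

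All 11 measured pan-leukocyte genes had negative differences, 0 of 11 were called, and their median was -0.66, or -0.38 without CreTW replicate 2 and -0.98 without Cre replicate 4. Rac2, a small GTPase of blood cells, differed by -0.95 ± 0.53 and the surface peptide Cd52 by -0.85 ± 0.40 (adjusted p = 0.49). Slide row 1 alone gave a median of -1.44 and row 2 one of 0.00247. Among ligands that keep or recruit marrow cells, 7 of 15 were measured and 0 called, with a median between -0.097 without Cre replicate 4 and 0.092 without CreTW replicate 2. Cxcl12, which holds blood-forming cells in the marrow, differed by -0.90 ± 0.41 (adjusted p = 0.483) and the monocyte attractant Ccl2 by 0.59 ± 0.25 (adjusted p = 0.453). The growth factor genes Csf2, Csf3 and Il7 were well above background on 0 of 8 arrays. At unadjusted limma p under 0.05 these 5 lists held 0 of 16, 2 of 16, 2 of 13, 0 of 11 and 2 of 7 measured genes in the order given. Of all features, 10.7% passed that threshold. Mrc1 (0.60) and Ly6c2 (0.41) of the monocyte and macrophage list were higher in CreTW, as were the ligands Il34 (0.33) and Ccl2. In the B-lineage list Ikzf3 was higher (0.57) and Cd37 lower (-0.66).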

How the data were processed

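The 8 samples were grouped by the genotype in their titles, and 1 array was 1 replicate (4 Cre, 4 CreTW, from 100 ng of RNA each). Per the file headers, Agilent Feature Extraction 11.5.1.1 gave a background-subtracted intensity for every spot, and the probes are placed on mm9. The deposited log2 table, made with GeneSpring 14.9 per the submitters' processing notes, followed log2 of the processed intensity, shifted by 1 constant for an array (r = 1.00 for all 8). That constant was within 0.0056 of the array's 75th percentile, its genes were not centred and its medians lay between -3.04 and -2.94.

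Spots of a probe were averaged without control spots and outlier flags, taken to log2 and reduced by the array's 75th percentile. Probes were named through RefSeq transcripts of GRCm38.p6, for names alone (32994 of 56605 probes matched 1 symbol). Where a gene had several probes, the brightest on average stood for it. Genotypes were compared with limma 3.58.1 in R 4.3.3 (lmFit, eBayes, 6 residual and 2.52 prior degrees of freedom), tested on simulated data. The members and lists were chosen with earlier results of these data known. All 31 members are named, with every value for the 3 largest differences of each group, and of each other list the 2 largest are named. Values of further genes, the genes named as not measured and the pairs of genes were chosen after they were seen. Same-numbered mice did not all deviate together (r of -0.012, -0.10, 0.31 and -0.030 for numbers 1 to 4). For differently numbered mice r ran from -0.50 (Cre 4 with CreTW 3) to 0.40 (Cre 4 with CreTW 2). Normexp was planned on the mean signal and run on the median signal. Alternatives were other scalings, background correction, probe filters, probe averaging, blocks, weights, the deposited table and leaving out arrays.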

Additional observations from a re-analysis of the deposited data

Results flagged for a closer look

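In 58 groups of 4 arrays, 6 held an array whose gap to its nearest neighbour was above the 95% limit of Dixon's test. Chance flags about 1 in 20 independent groups. These groups were not independent, since the genes share arrays and the averages of the gene groups were included. Csf1r and Cd68 were low on Cre replicate 4 (4.41 against 5.59 to 5.61, a gap of 0.981 of the range, and 2.58 against 4.07 to 4.23, 0.904 of the range). Elane was high on Cre replicate 3 (0.63 against 0.05 to 0.15, 0.831 of the range) and Cd22 low there (1.02 against 1.27 to 1.31, 0.865 of the range). Itgam was low on CreTW replicate 4 (7.21 against 7.40 to 7.43, 0.869 of the range). Ms4a1 was high on CreTW replicate 3 (-2.43 against -5.00 to -4.76, 0.905 of the range), on which Pax5 also lay within the Cre range. The lower Ms4a1 values, on CreTW replicates 1, 2 and 4, were not well above background, so this gap is not exact.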

How the results depend on the processing

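Across 22 alternatives 0 of the 25 measured genes were called (lowest adjusted p of a member 0.111). The labels do not say what same-numbered mice share, and not every same-numbered pair deviated together. Whether they share more than a number was not tested. With the replicate block 12 features and 0 members were called, against 80 features without it. The count of features called was 27 with no filter on dim probes, 53 with slide row as a block, 0 with slide row 1 alone, 0 with slide row 2 alone, 127 with array weights and 17 without both Cre 3 and Cre 4, and 42 to 75 without 1 array. Leaving out both Cre 3 and Cre 4 was added after seeing the data. With slide row 2 alone, values that changed sign, or medians that moved, were 0.082 for the median of monocyte genes, 0.00247 for the median of pan-leukocyte genes, 0.27 for the median of marrow niche and colony-stimulating ligands, -0.14 for Elane, -0.097 for Mpo, 0.42 for Cebpe, -0.34 for Camp, 0.11 for S100a9, 0.022 for Csf3r, 0.19 for Csf1r, 0.088 for Cd68 and 0.075 for Adgre1. With slide row 1 alone, values that changed sign, or medians that moved, were -1.44 for the median of pan-leukocyte genes, 0.67 for Ngp, 0.43 for Vpreb1, 0.15 for Vpreb3 and -0.12 for Ebf1. With normexp on the median signal, offset 50, values that changed sign, or medians that moved, were -0.092 for Mpo, -0.21 for Ctsg and -0.099 for Camp. With array weights, values that changed sign, or medians that moved, were -0.33 for Mpo, -0.57 for Camp and -0.038 for Ebf1. Without both Cre 3 and Cre 4, values that changed sign, or medians that moved, were 0.70 for Ngp, 0.14 for Vpreb1 and -0.054 for Ebf1. With the mean of all probes of a gene, values that changed sign, or medians that moved, were -0.083 for Ebf1. Without 1 array at a time, the log2 difference ran from -1.11 to 0.15 for the median of mature neutrophil genes, from -0.65 to 1.52 for Mpo, from -0.29 to 1.96 for Ctsg, from -1.08 to 0.49 for Cebpe, from -1.17 to 0.67 for Ltf, from -0.60 to 1.12 for Camp, from -1.02 to 0.19 for Ngp, from -0.59 to 0.36 for Lcn2, from -1.11 to 0.53 for S100a8, from -1.21 to 0.56 for S100a9, from -0.11 to 0.036 for Csf3r, from -0.27 to 0.14 for Adgre1, from -0.81 to 0.65 for Vpreb1, from -0.97 to 0.47 for Vpreb3 and from -0.046 to 0.062 for Ebf1. Called other B-lineage genes numbered 0 to 1, the 1 being Cd37 without Cre replicate 4 (-0.92, adjusted p from limma 0.0426). After normexp Ms4a1 kept its sign at -0.54, against -2.0. The cause of these changes was not tested. Signals near background limit Ctsg, Cebpe, Ltf, Ngp, Mmp8, Vpreb1, Vpreb3, Pax5 and Ms4a1, each dim on at least 1 array.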
